A study of Mus musculus with 56 samples.

Results

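The calcium cycle of the heart muscle cell was followed through 8 genes, Atp2a2, Pln, Ryr2, Casq2, Cacna1c, Slc8a1, Trdn and Hrc, a list of symbols whose rule uses no measured value but which was drawn up with earlier results of these data known, among 22864 genes listed for mouse heart. The donors were adult females of the inbred strain C57BL/6J at 9 weeks of age, eating normal chow, and the labels name no mutation and no drug. Light and darkness alternated every 12 h, and for 7 days food was offered only by day (daytime-restricted feeding, DRF) or only by night (nighttime-restricted feeding, NRF, the reference). Sampling ran from lights on (zeitgeber time 0, ZT0) to the same hour a day later (ZT24) every 4 h, giving 14 groups of 4 replicates and 56 polyA RNA-seq libraries of heart tissue. The labels do not say whether replicates are separate animals, so every p-value measures the spread between these libraries.

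In each heartbeat, calcium enters through the L-type channel, whose pore is encoded by Cacna1c, and opens the ryanodine receptor, encoded by Ryr2, which releases calcium from the sarcoplasmic reticulum. Inside that store, calsequestrin (Casq2) and the histidine-rich calcium binding protein (Hrc) hold calcium, and triadin (Trdn) anchors calsequestrin to the release channel. The muscle relaxes when the SERCA pump (Atp2a2), held back by phospholamban (Pln), returns calcium to the store and the sodium-calcium exchanger (Slc8a1) carries it out of the cell. The comparison asked whether the daily course of these transcripts followed the time of feeding.

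The rhythms of Pln and Casq2 differed between the regimens by clock time, the first with a fitted peak 4.43 h earlier under DRF (SE 1.3 h) and the second with one 7.10 h later (SE 1.54 h). The difference of Pln was lost with median-of-ratios scaling (adjusted p = 0.139), and under DRF alone the rhythm of Casq2 did not pass (0.0542; it passed with limma voom, 0.0265, and with the atrial covariate, 0.00853) and that of Pln was marginal (0.0465). Atp2a2 was lower by 0.13 on the log2 scale (SE 0.04, fold 0.913) over the DRF day, with the widest gap at ZT12, but the call over the day was lost with median-of-ratios scaling (-0.07, adjusted p = 0.0877). Ryr2 and Cacna1c were higher under DRF at ZT20, with folds of 1.33 and 1.3, calls that were lost without any of 4 and any of 6 single libraries. Slc8a1 had a daily rhythm under NRF and, under DRF, its highest means at ZT8 and ZT24, and the rhythms did not pass the test of a difference by clock time (adjusted p = 0.221). By hours since food was offered, the rhythms of Pln, Slc8a1 and Casq2 differed (limma adjusted p = 0.000309, 0.00490 and 0.0423), where 41.5% of all genes did. Each of these calls was lost in 1 or more other settings, and that of Casq2 in 23 of 56 fits without 1 library. At 8 h into feeding Slc8a1 was 1.60 times as high under DRF (limma adjusted p = 0.000469), where 2.61% of all genes were called higher. The largest single-ZT fold was 1.33 (Ryr2), against levels that ranged 1.46-fold (Pln) to 2.28-fold (Ryr2) from the lowest to the highest library.

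**Figure D1:**
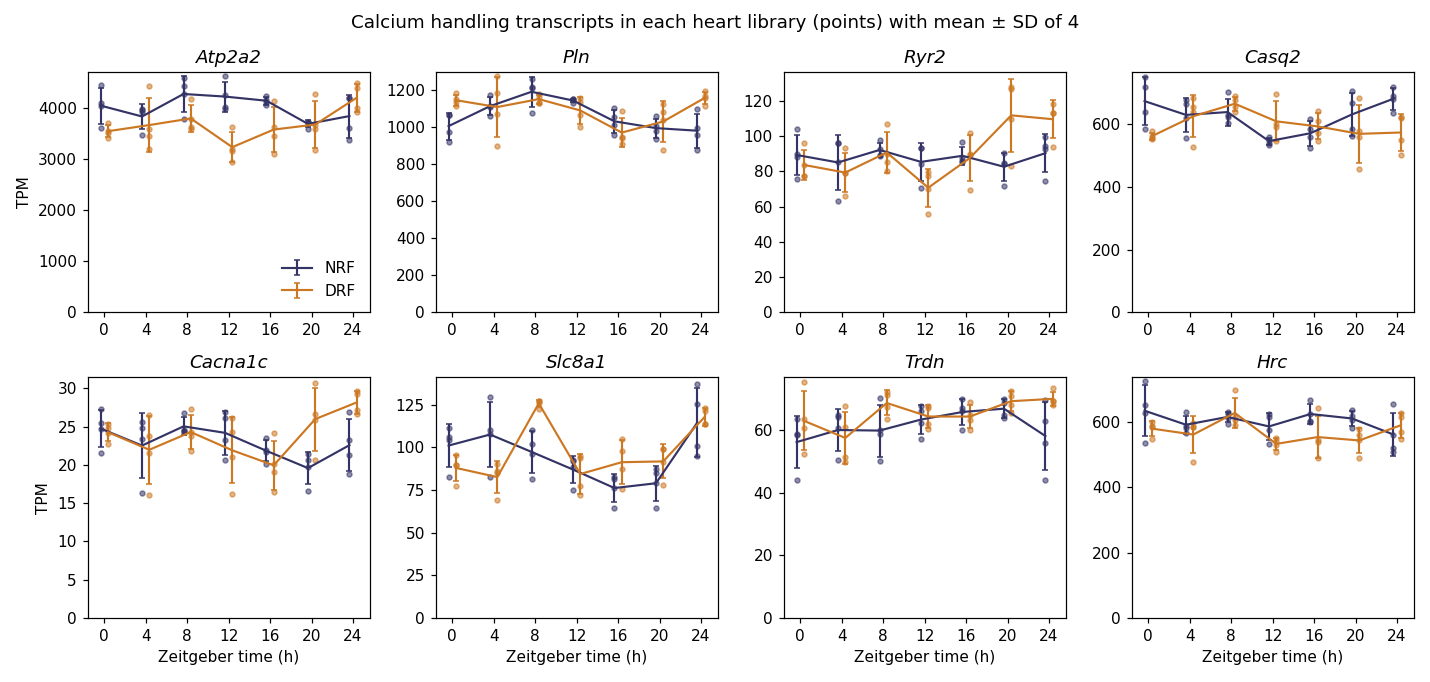
TPM (vertical axes, from 0) of each calcium handling gene against zeitgeber time in hours, with 1 point per library and lines and bars for the mean ± SD of 4 libraries, in blue for NRF and orange for DRF. Atp2a2 sits lower under DRF at ZT12, Ryr2 and Cacna1c sit higher at ZT20, and Slc8a1 is high and tight at ZT8 under DRF.

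Values are TPM, reads per base of exon scaled to 1 sum in every library, recomputed from whole reads recovered from the deposited values. Recovered reads per library, in megareads, were 29.5 to 53.4 under DRF and 30.2 to 48.5 under NRF, and the 8 genes had from 2999 reads (Slc8a1) to 596620 reads (Atp2a2) in a library. Cardiomyocyte markers (Myh6, Tnnt2, Tnni3, Myl2 and Actc1) averaged 1337 to 11288 TPM each. The summed level of 5 atrial markers (Sln, Myl7, Myl4, Nppa and Bmp10) ran from 94.2 to 5436 TPM under DRF (median 1785) and from 128 to 4352 TPM under NRF (median 604) and differed widely within both regimens. None of the 11 marker lists had a listed marker at 0 in every library. In mean level, where 28.3% of all genes were called, all 3 endothelial markers were called (median sums 361 TPM under DRF and 407 under NRF), as were the 1 listed skeletal muscle marker (239 and 336 TPM), 2 of 4 fibroblast markers (440 and 461 TPM), 2 of 5 cardiomyocyte markers (28326 and 29497 TPM), 1 of 3 smooth muscle markers (229 and 276 TPM), 1 of 2 ventricular (6970 and 7065 TPM), 1 of 3 tested leukocyte (20.7 and 24.5 TPM) and 1 of 5 atrial markers. No blood, brown fat or nerve marker was called. With the atrial markers as a covariate, the mean-level difference was -0.13 for Atp2a2 (adjusted p = 0.00965) and -0.07 for Hrc (adjusted p = 0.110, call lost), and the part of the other markers in the differences in mean level was not tested. The mitochondrial genome supplied 21.6 ± 1.46% of the DRF reads and 20.3 ± 1.56% of the NRF reads (SD over 28 libraries). In whole tissue, fewer cells of a type and less RNA per cell cannot be told apart.

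The levels per length fell in a wide order. Atp2a2 led with 3831 TPM (mean of 56 libraries), followed by Pln with 1080, Casq2 with 612, Hrc with 586, Slc8a1 with 96.1, Ryr2 with 89.0, Trdn with 63.4 and Cacna1c with 23.4 TPM. The pump transcript was 3.54 times that of its inhibitor (median ratio), and in 56 of 56 libraries Atp2a2 exceeded Pln and Pln exceeded Casq2. Casq2 and Hrc did not separate, with Casq2 higher in 34 of 56 libraries, nor did Slc8a1 and Ryr2, with Slc8a1 higher in 37. Ryr2 exceeded Trdn in 54 libraries and Trdn exceeded Cacna1c in all 56. The level of Slc8a1 depends on its length. Its values gave whole reads only with an exon length of 2934 bases, against 18807 in GENCODE M21, and that length equals the joined exons of 2 of its 6 annotated transcripts, with 2931 coding bases. The long exon of 15963 bases was thus not counted for this gene, which bears on its place in the order. The same length was used in every library, and a change in the use of uncounted exons between libraries was not tested.

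3 members showed a daily rhythm under NRF, namely Pln, Casq2 and Slc8a1 (limma F test of a 24-h harmonic, Benjamini-Hochberg adjusted p under 0.05), where 37.3% of all 13869 genes tested did. Under DRF there were 2 of 8, Pln and Ryr2, where 32.4% of all genes did. Only Pln passed in both regimens, as 17.7% of all genes did. A test of any difference among the 7 ZTs, with no assumed shape, called the same 3 under NRF (background 31.9%) and Atp2a2, Pln, Ryr2, Cacna1c and Slc8a1 under DRF (background 36.2%). ZT0 and ZT24, the same hour a day apart, counted as separate times in it. Without ZT24 the DRF count was 2.

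The sequences just before the start sites of the 3 genes rhythmic under NRF are shown because these genes share that call but peaked at different times. RefSeq windows of 300 bases (250 before and 50 after the start, build GRCm38.p6) were matched for 6 of the 8 members, in 8 windows, and were not matched for Atp2a2 and Trdn. The 250 bases before the start are printed 5′ to 3′ on the gene's strand, with motif matches in capitals, at chr10:53337436-53337685 (plus strand) for Pln, chr3:102086165-102086414 (plus) for Casq2 and chr17:81738388-81738637 (minus) for Slc8a1.
Pln: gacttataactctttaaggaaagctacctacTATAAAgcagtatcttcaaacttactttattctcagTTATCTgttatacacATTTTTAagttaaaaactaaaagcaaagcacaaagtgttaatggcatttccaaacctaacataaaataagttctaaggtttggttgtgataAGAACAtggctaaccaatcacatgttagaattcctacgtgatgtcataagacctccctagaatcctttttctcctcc
Casq2: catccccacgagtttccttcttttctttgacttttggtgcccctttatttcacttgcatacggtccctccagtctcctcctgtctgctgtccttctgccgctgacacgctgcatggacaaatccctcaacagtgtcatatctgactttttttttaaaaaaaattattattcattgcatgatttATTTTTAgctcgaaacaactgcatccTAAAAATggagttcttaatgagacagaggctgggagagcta
Slc8a1: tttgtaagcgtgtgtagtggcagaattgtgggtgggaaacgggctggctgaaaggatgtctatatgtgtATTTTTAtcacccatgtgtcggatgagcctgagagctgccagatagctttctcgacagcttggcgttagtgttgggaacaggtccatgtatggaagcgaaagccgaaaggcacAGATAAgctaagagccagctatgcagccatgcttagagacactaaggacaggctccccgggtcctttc
Searched on both strands were the E-box CACGTG, the core of the D-box TTATGTA, the ROR element TAGGTCA, the A/T core of the MEF2 site TAAAAAT, the GATA site AGATAA, the glucocorticoid half-site AGAACA and the TATA box TATAAA. The first 3, which are the letters bound by clock factors, matched in 0 of the 8 windows of these genes, against 7.15%, 2.63% and 2.61% of all 32851 windows. TAAAAAT matched in 4 windows (Casq2 at -67 and -41 from the start, Hrc at -245, Pln at -168, Slc8a1 at -181), against 6.53% of all windows. AGATAA matched in Pln (-183) and Slc8a1 (-68), against 11.2%. AGAACA matched in Pln (-77) and in 1 of the 3 Cacna1c windows, against 19%, and TATAAA in Pln (-219), against 13.6%. These are matches of letters in short windows and not measured binding sites.

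Among the genes of entry and release, Cacna1c, the pore of the L-type channel (chromosome 6, 118587240 to 119196418, minus strand, GRCm38), averaged 23.8 ± 3.88 TPM in DRF libraries and 22.9 ± 2.99 in NRF libraries (SD, n = 28 each). At ZT20 its 4 DRF libraries held 26.6, 20.7, 25.9 and 30.7 TPM and its 4 NRF libraries 20.6, 21.4, 16.6 and 19.8 TPM. All but 1 of the DRF libraries lay above every NRF library, so the groups overlapped through DRF replicate 2. The difference was 0.38 on the log2 scale (SE 0.13, fold 1.3, limma adjusted p = 0.0395), where 14.8% of all genes were called at ZT20 and 3.4% were called higher. It lost its call with any of 6 ZT20 libraries left out (DRF replicates 1, 3 and 4 and NRF replicates 1, 3 and 4; adjusted p 0.0572 to 0.141) and in 4 of 14 other settings, among them the atrial markers as a covariate (difference 0.35, adjusted p = 0.0664). The atrial marker sum at ZT20 had medians of 612 TPM under DRF and 1418 TPM under NRF. Its level also differed among ZTs under DRF (adjusted p = 0.0317), from 19.9 ± 3.18 TPM at ZT16 to 28.2 ± 1.47 at ZT24 (SD, n = 4), but a 24-h harmonic did not pass the test (adjusted p = 0.137).

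Ryr2, the release channel itself (chromosome 13, 11553102 to 12106945, minus strand), had the widest spread under DRF, with 90.4 ± 18.3 TPM against 87.6 ± 9.46 under NRF (SD, n = 28 each). At ZT20 the DRF libraries held 109, 83.1, 128 and 126 TPM and the NRF libraries 84.5, 90.3, 71.5 and 83.8 TPM. Again DRF replicate 2 lay within the NRF range and the other 3 above it. The difference of 0.42 (SE 0.13, fold 1.33) passed the test (limma adjusted p = 0.0258), and was lost without DRF replicate 1, 3 or 4 or NRF replicate 3 of that time (adjusted p 0.0573 to 0.0972). With the atrial covariate it was 0.38 (adjusted p = 0.0458). At ZT20 the mitochondrial share of reads was 22.3 to 24.7% in the DRF libraries and 19.3 to 20.4% in the NRF libraries, without overlap, and its part in the Ryr2 and Cacna1c differences was not tested. At ZT12 Ryr2 stood at 70.6 ± 10.6 TPM under DRF and 85.3 ± 10.8 under NRF (SD, n = 4; adjusted p = 0.20). Its DRF course had a fitted peak at 21.5 h (SE 1.28 h) and an amplitude of 0.20 (SE 0.07) on the log2 scale, against 0.02 (SE 0.05) under NRF. The DRF call was marginal (adjusted p = 0.0497) and was lost in 19 of 56 fits that left out 1 library (adjusted p 0.0525 to 0.102) and in 10 of 15 other settings. The difference in rhythm between regimens did not pass the test by clock time (adjusted p = 0.0920) or by feeding time (0.135). By feeding time it passed with median-of-ratios scaling (0.0480). Cacna1c and Ryr2 have the longest exon sums of the members (21.2 and 28.8 kb), and at ZT20 the median difference of all genes ran with length, from -0.16 for genes under 2 kb to 0.02 for those over 10 kb. With that trend subtracted, Ryr2 differed by 0.33 (adjusted p = 0.00520) and Cacna1c by 0.32 (adjusted p = 0.00955).

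Casq2, the calcium buffer of the store (chromosome 3, 102086415 to 102146514, plus strand), gave the clearest change in timing. Under NRF it was highest around lights on, with 719, 584, 752 and 640 TPM at ZT0 and 635, 719, 681 and 689 TPM at ZT24, and lowest at ZT12, with 540, 559, 535 and 551 TPM. These times were picked as those of its highest and lowest means. The fitted peak was at 1.34 h (SE 0.944 h) with an amplitude of 0.13 (SE 0.03; adjusted p = 0.00318), a call lost without ZT12 (0.0958). Under DRF the libraries at ZT0 held 554, 555, 577 and 561 TPM and those at ZT8 held 676, 639, 656 and 690 TPM, its lowest and highest means, and the fitted peak was at 8.43 h (SE 1.22 h; amplitude 0.11, adjusted p = 0.0542). The rhythms of the regimens differed by clock time (limma interaction test, adjusted p = 0.00273; background 27.7%), a call that held in each of the 56 fits without 1 library (adjusted p at most 0.00638) and under each of the 15 other settings tried (at most 0.0345). When NRF times were shifted by 12 h, so that hours since food was offered were compared, the difference also passed (adjusted p = 0.0423; background 41.5%), but this was lost in 23 of 56 fits without 1 library (adjusted p 0.0502 to 0.0800) and in 8 of 15 other settings, among them median-of-ratios scaling (0.301). At single times Casq2 was lower under DRF at ZT0 (fold 0.838, adjusted p = 0.0601) and ZT24 (fold 0.840, adjusted p = 0.0716), where the libraries of the regimens did not overlap but the test was not passed. The ZT24 difference of -0.25 passed with median-of-ratios scaling (-0.26, adjusted p = 0.0392) and limma voom (-0.27, adjusted p = 0.0179), and with the atrial covariate it was -0.19 (adjusted p = 0.174). Non-overlap at those times held for 15.5% and 13.4% of all genes.

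Trdn and Hrc, the other store proteins, passed no test of rhythm under TPM scaling. With median-of-ratios scaling, the rhythms of Trdn differed by feeding time (adjusted p = 0.0496). Trdn (chromosome 10, 33080554 to 33476709, plus strand) averaged 65.4 ± 6.45 TPM in DRF libraries and 61.5 ± 7.31 in NRF libraries (SD, n = 28 each), a difference of 0.09 (SE 0.04, limma adjusted p = 0.10). With median-of-ratios scaling the difference was 0.15 and passed (adjusted p = 0.0371). Its widest difference was at ZT24, with 73.5, 68.1, 69.4 and 69.3 TPM under DRF and 69.8, 44.1, 55.9 and 63.0 TPM under NRF (fold 1.22, adjusted p = 0.0874). The NRF libraries there were far more spread than the DRF libraries. Hrc (chromosome 7, 45335290 to 45338974, plus strand) was lower over the DRF day, with 569 ± 49.1 against 603 ± 47.0 TPM (SD, n = 28 each; log2 difference -0.08, SE 0.03, limma adjusted p = 0.0332). Of all genes, 25.6% were called lower and 2.67% higher under DRF in this test. The Hrc call was lost in 10 of 15 other settings. With median-of-ratios scaling Hrc differed by -0.03 (adjusted p = 0.582), and over all genes the split of called genes went from 90.6% lower to 55.6% lower. It was also lost without any of 6 libraries (DRF ZT16 replicate 4, DRF ZT20 replicate 2, NRF ZT0 replicate 3, NRF ZT16 replicate 4, NRF ZT20 replicate 2 and NRF ZT24 replicate 2; adjusted p 0.0502 to 0.0584).

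Atp2a2, the SERCA pump (chromosome 5, 122453513 to 122502225, minus strand), averaged 3663 ± 420 TPM in DRF libraries and 3999 ± 327 in NRF libraries (SD, n = 28 each). The difference in mean level, -0.13 (SE 0.04, fold 0.913), passed the test (limma adjusted p = 0.00458) and kept its call in each fit without 1 library (-0.14 to -0.12), but with median-of-ratios scaling it was -0.07 (adjusted p = 0.0877), and the call was also lost without ZT12 and with the deposited values. Without all libraries of replicate number 2 the adjusted p was 0.0837. The gap was widest at ZT12, when lights went off and the DRF mice lost their food. The DRF libraries then held 3191, 3158, 2929 and 3629 TPM and the NRF libraries 4613, 4013, 4252 and 3980 TPM. Every DRF library lay below every NRF library, which was so at ZT12 for 13.6% of all genes. The difference of -0.39 (SE 0.09, fold 0.765) passed the test (adjusted p = 0.00481; background 7.74% called, 6.47% lower) in each fit without 1 library (adjusted p at most 0.0390), though not without the libraries of replicate number 3 (-0.34, adjusted p = 0.193). The atrial marker sum was the higher under DRF at ZT12, with 957 to 4657 TPM (median 2515) against 189 to 1630 TPM (median 405) in the NRF libraries. With these markers as a covariate the Atp2a2 difference was -0.39 (adjusted p = 0.00971). At ZT20 the regimens were close (3669 ± 450 and 3681 ± 69.9 TPM; SD, n = 4), and at ZT24 DRF was the higher (4192 ± 273 against 3834 ± 419 TPM, adjusted p = 0.366).

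The rhythm of Atp2a2 passed in neither regimen (adjusted p = 0.0823 under NRF and 0.197 under DRF), while the difference between the regimens by clock time did (adjusted p = 0.0317), with fitted peaks at 10.6 h under NRF (SE 1.54 h) and 1.06 h under DRF (SE 1.94 h). This call was lost in 8 of 15 other settings, among them median-of-ratios scaling (0.0767) and leaving out ZT12 (0.370), and without any of 7 libraries (DRF ZT12 replicates 1, 2 and 3, DRF ZT24 replicates 3 and 4, NRF ZT12 replicate 1 and NRF ZT24 replicate 3; adjusted p 0.0522 to 0.0717).

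Pln, the inhibitor of the pump (chromosome 10, 53337667 to 53345987, plus strand), had a rhythm under NRF. Its libraries held 1261, 1215, 1213 and 1075 TPM at ZT8, near the middle of the light phase, and 1096, 993, 957 and 876 TPM at ZT24. These were the times of its highest and lowest means. The fitted peak was at 8.85 h (SE 0.649 h) with an amplitude of 0.15 (SE 0.02), a peak 1.22 times the trough (adjusted p = 0.000178), a call kept under each of the 15 other settings and each of the 56 fits without 1 library. Under DRF Pln was lowest at ZT16, with 1085, 946, 944 and 907 TPM, and its fitted peak was at 4.42 h (SE 1.12 h; amplitude 0.11, SE 0.04). The DRF call was marginal (adjusted p = 0.0465) and was lost in 22 of 56 fits without 1 library (adjusted p 0.0502 to 0.111) and in 10 of 15 other settings, among them median-of-ratios scaling (0.414).

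The Pln rhythms of the regimens differed by clock time (adjusted p = 0.0126) and, more clearly, by hours since food was offered (adjusted p = 0.000309). By clock time the call was lost with median-of-ratios scaling (0.139) and in 4 other settings, and by feeding time it was kept there (0.0446) but lost with the length trend subtracted (0.0598). At ZT24 Pln was higher under DRF, with 1157, 1113, 1167 and 1194 TPM against the NRF values given above, and the groups did not overlap (fold 1.18, adjusted p = 0.0349; background 8.89% called, 4.43% higher). The call was lost without any of 6 libraries (DRF ZT24 replicates 1, 3 and 4 and NRF ZT24 replicates 2, 3 and 4; adjusted p 0.0586 to 0.131) and in 3 of 14 other settings, among them median-of-ratios scaling (0.0733). The atrial marker sum at ZT24 had medians of 1906 TPM under DRF and 291 TPM under NRF, and with these markers as a covariate Pln differed by 0.27 (adjusted p = 0.0216). ZT0 libraries did not overlap either (1185, 1135, 1112 and 1151 TPM under DRF, 918, 1064, 973 and 1068 TPM under NRF; fold 1.14, adjusted p = 0.0969). The ZT0 difference passed with limma voom (0.22, adjusted p = 0.0370). Pln shares 1644 of its 2759 exon bases with Gm47644 and 141 with Cep85l, both on the opposite strand. The library kit named in the labels does not mark strand, so reads of these genes could not be told apart, and they averaged 7.39 and 9.00 TPM against 1080 for Pln. Atp2a2 shares 83 exon bases with Gm43361 (0.484 TPM) in the same way. Slc8a1 shares 296 exon bases with AC122399.1 and 8 with Gm11096, also on the opposite strand and with no level available.

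Slc8a1, the sodium-calcium exchanger (chromosome 17, 81373105 to 81738377, minus strand), had the largest amplitude under NRF among the members, 0.27 (SE 0.05) on the log2 scale, or a peak 1.46 times the trough. The fitted peak was at 3.75 h (SE 0.728 h; adjusted p = 0.00101). NRF libraries held 126, 95.1, 101 and 137 TPM at ZT24 and 64.2, 76.3, 82.9 and 81.3 TPM at ZT16, the times of its highest and lowest means. Under DRF a 24-h harmonic did not pass (adjusted p = 0.556), although the level differed among ZTs (adjusted p = 0.000182). It was 127, 123, 126 and 127 TPM at ZT8 and 123, 114, 122 and 114 TPM at ZT24, and every DRF library at the other 5 times lay between 69.0 and 105 TPM. By clock time the rhythms did not pass the test of a difference (adjusted p = 0.221), and by feeding time they did (adjusted p = 0.00490), a call lost without ZT16 (0.0664).

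**Figure D2:**
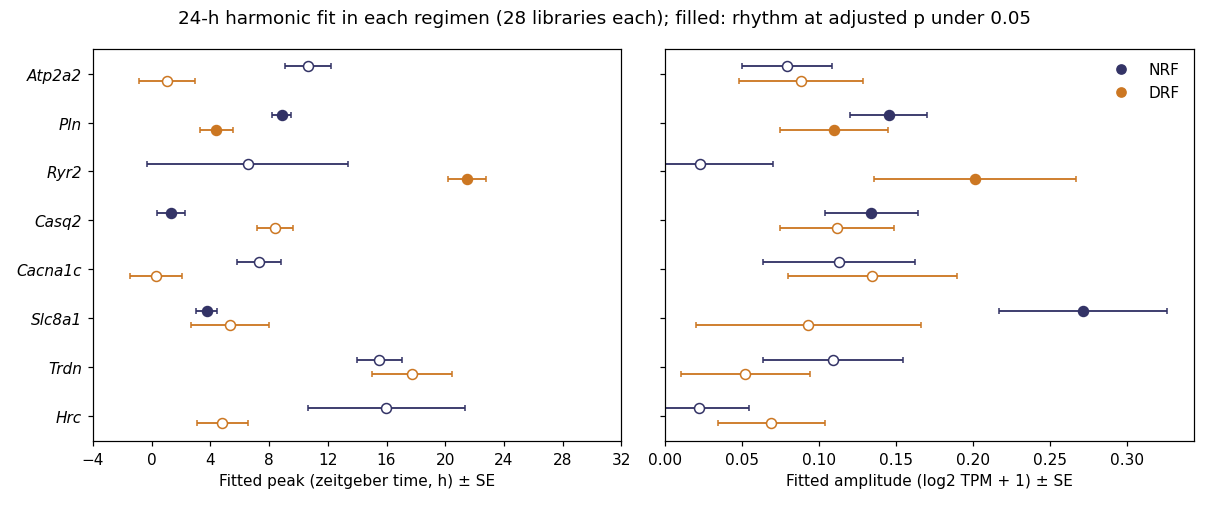
Fitted peak (left, zeitgeber time in hours ± SE) and amplitude (right, log2 of TPM + 1 ± SE) of the 24-h harmonic for each gene, in blue for NRF and orange for DRF, filled where the rhythm passed at adjusted p under 0.05. The fitted peaks of Pln and Casq2 have narrow errors in both regimens and shift in opposite directions. Under DRF the Casq2 symbol is open (limma adjusted p = 0.0542) and the Pln call is marginal (0.0465). Open symbols with wide errors, such as Ryr2 and Hrc under NRF, have no defined peak.

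Of 56 member contrasts at single ZTs, 4 passed, and they have been given above (Atp2a2 at ZT12, Ryr2 and Cacna1c at ZT20, Pln at ZT24). At ZT0, ZT4, ZT8 and ZT16 none of the 8 passed, with 3, 1, 1 and 3 at an unadjusted limma p under 0.05 and with 11.3%, 0.447%, 0.389% and 6.94% of all genes called. Libraries of the regimens did not overlap for 2 members at ZT0 and 2 at ZT24 (Casq2 and Pln both times), for Slc8a1 alone at ZT8 (7.63% of all genes), for Atp2a2 alone at ZT12, for Hrc alone at ZT20 (fold 0.889, adjusted p = 0.136; 19.7% of all genes), and for 0 members at ZT4 (2.88%) and ZT16 (19.5%). At ZT8 Slc8a1 was 1.3 times as high under DRF without overlap of libraries (NRF values 81.5, 96.0, 110 and 102 TPM; adjusted p = 0.141), and it passed with median-of-ratios scaling (difference 0.45, adjusted p = 0.0404).

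The hearts were also compared at the same time since food was offered, DRF ZT0, 4, 8, 12, 16 and 20 against NRF ZT12, 16, 20, 24, 4 and 8, with libraries that the clock-time contrasts use too. Of 48 member contrasts, 3 passed. Slc8a1 was 1.60 times as high 8 h into feeding under DRF as under NRF (127, 123, 126 and 127 TPM at DRF ZT8 against 79.0, 87.2, 64.5 and 85.2 TPM at NRF ZT20; log2 difference 0.67, SE 0.12, limma adjusted p = 0.000469; background 5.56% called, 2.61% higher). Its groups were far apart, and the call held in each fit without 1 library (0.58 to 0.73) and in each of the 13 other settings (adjusted p at most 0.000769). At the end of feeding it was lower under DRF, with 93.9, 77.1, 71.8 and 94.8 TPM at ZT12 against the NRF ZT24 values given above (fold 0.741, adjusted p = 0.0285; background 5.18% called, 2.79% lower), a call lost without DRF ZT12 replicate 2 or 3 or NRF ZT24 replicate 1 or 4 (adjusted p 0.109 to 0.129) and with the atrial markers as a covariate (0.121). NRF ZT0, the same hour as NRF ZT24 a day earlier, held 111, 82.7, 106 and 104 TPM. It was not compared with DRF ZT12. Pln was lower 8 h into fasting under DRF (1081, 877, 1037 and 1127 TPM at ZT20 against NRF ZT8; fold 0.863, adjusted p = 0.0365), where 24.1% of all genes were called and 21% were lower, and this was lost in 5 of 13 other settings, among them median-of-ratios scaling (-0.08, adjusted p = 0.599), and without DRF ZT20 replicate 2 or 3 or NRF ZT8 replicate 1, 2 or 3 (adjusted p 0.0565 to 0.218). At the other 3 matched times none of the 8 passed, with 1 at an unadjusted limma p under 0.05 at each, where 6.26%, 6.47% and 22.9% of all genes were called. Pln at DRF ZT16 against NRF ZT4 came nearest (fold 0.871, adjusted p = 0.0502). Some contrasts passed only in other settings. Atp2a2 at DRF ZT12 against NRF ZT24 (fold 0.843) was called with median-of-ratios scaling (0.0421), limma voom (0.03) and the length trend removed (0.0350), and Ryr2 at DRF ZT20 against NRF ZT8 (fold 1.19) with median-of-ratios scaling (0.0187) and the length trend removed (0.0425). With the length trend removed, Ryr2 was also called lower at DRF ZT12 against NRF ZT24 (-0.31, adjusted p = 0.0119). Limma voom also called Atp2a2 lower at DRF ZT0 against NRF ZT12 (-0.22, adjusted p = 0.0420), and the atrial covariate called Casq2 (-0.25, 0.0320) and Hrc (-0.22, 0.0427) lower at DRF ZT20 against NRF ZT8.

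**Figure D3:**
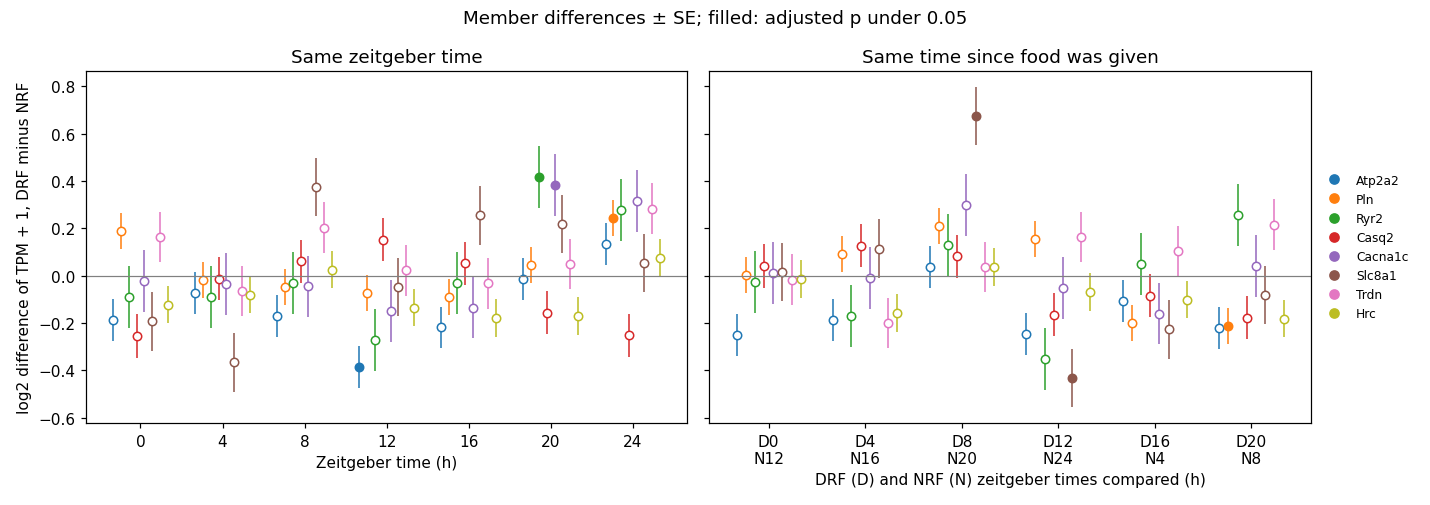
Log2 difference of TPM + 1 (DRF minus NRF, ± SE) for each gene, at the same zeitgeber time on the left and at the same time since food was offered on the right, where D and N give the DRF and NRF zeitgeber times in hours. Filled points passed at adjusted p under 0.05, namely 4 on the left and 3 on the right, and the largest is Slc8a1 at DRF ZT8 against NRF ZT20 (0.67).

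ZT24 repeats ZT0 a day later. No member differed between them in either regimen by limma, with 1 (Hrc, fold 0.886) at an unadjusted p under 0.05 under NRF and 3 under DRF, namely Slc8a1 (fold 1.34, adjusted p = 0.113), Ryr2 (fold 1.31, adjusted p = 0.201) and Atp2a2 (fold 1.18, adjusted p = 0.230). Limma voom called none either, while median-of-ratios scaling called 1 member and removal of the length trend 2. Of all genes, 0.0577% were called under NRF and 0.469% under DRF. The harmonic fits treat the end points as 1 phase, so this spread enters their error.

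Because pump and inhibitor work together, 7 ratios of transcripts were compared between the regimens, with labels permuted within each ZT (100000 resamples, two-sided) and p-values adjusted over the 7. The share of other gene pairs that pass this test was not computed, so a call is not shown to be particular to its pair. The Pln/Atp2a2 ratio was 0.299 under DRF and 0.266 under NRF (geometric means, n = 28 each; log2 -1.74 ± 0.14 and -1.91 ± 0.15, SD). It was higher under DRF at 7 of 7 ZTs, 1.12-fold on average (permutation p = 2.00e-05, adjusted 0.000140), and passed in each fit without 1 library and in each alternative setting run at the same threshold. Its difference was 0.17 with the atrial markers as a covariate as well. Slc8a1/Atp2a2 was also higher under DRF, 1.13-fold (permutation adjusted p = 0.0127), at 4 of 7 ZTs, and lost its call without ZT8 (difference 0.11, adjusted p = 0.164), without ZT16 (0.12, adjusted p = 0.116) and without the libraries of replicate number 1 (0.12, adjusted p = 0.152) or 2 (0.16, adjusted p = 0.0893). Trdn/Casq2 was 1.11-fold higher (permutation adjusted p = 0.0437), at 4 of 7 ZTs, and lost its call in 29 of 56 fits without 1 library (adjusted p 0.0506 to 0.0916) and in 6 of 12 other settings. The ratios Cacna1c/Ryr2, Casq2/Ryr2, Trdn/Ryr2 and Hrc/Casq2 differed by 0.943 to 1.05-fold and did not pass (permutation adjusted p 0.355 to 0.522).

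**Figure D4:**
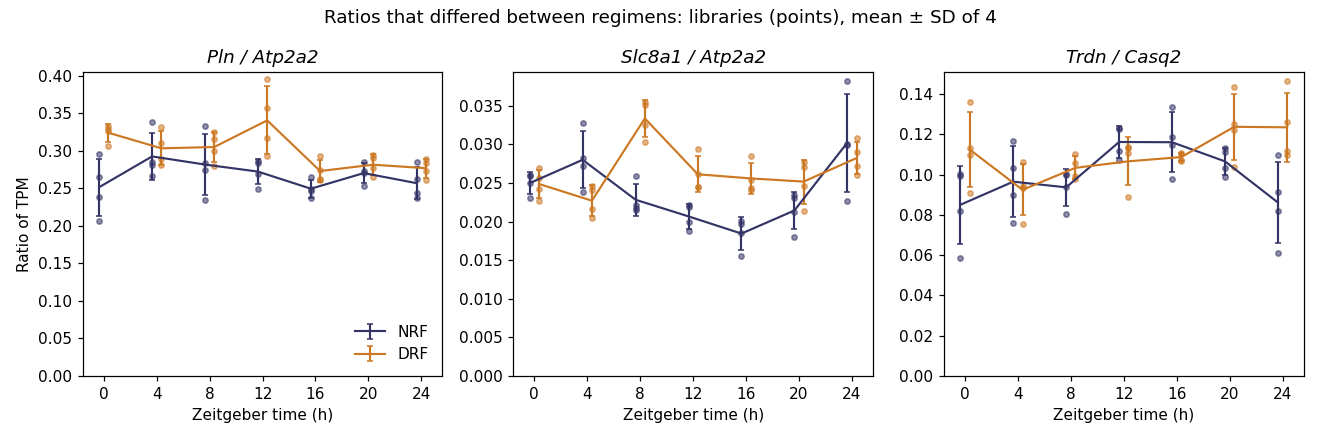
Ratio of TPM (vertical axes, from 0) against zeitgeber time in hours for the 3 ratios that passed, with 1 point per library and the mean ± SD of 4, in blue for NRF and orange for DRF. The mean Pln/Atp2a2 ratio is higher under DRF at each of the 7 times, while the other 2 ratios cross.

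For each member, the 2 tested genes whose levels were most like its own over the 56 libraries (Pearson r on log2 of TPM + 1) were named as a description, since all share libraries, depth and time of day. Atp2a2 ran with Ogdh (r = 0.88) and Pde4dip (0.85), and Ryr2 with Myom1 (0.84) and again Pde4dip (0.82). Cacna1c ran with Svil (0.84) and Ncoa2 (0.83), Trdn with Pnpla8 (0.84) and Zfp943 (0.82), and Hrc with Tmem143 and Gfm1 (0.82 and 0.79). Casq2 ran with Mrpl45 (0.82) and Mrpl19 (0.81), both of the mitochondrial ribosome. Pln ran with Epm2a (0.78), the glycogen phosphatase laforin, and Phykpl (0.74), and Slc8a1 with Qk and Msi2 (0.77 and 0.76), both RNA-binding proteins.

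Of 65 other genes of calcium handling, 64 were listed and 57 tested. Under NRF 25 were rhythmic (37.3% of all genes tested were) and under DRF 21 (32.4%), with 11 in both (17.7%). By clock time 22 differed in rhythm (27.7%), and by feeding time 28 (41.5%). In mean level 2 were called higher under DRF (2.67%) and 27 lower (25.6%). The median difference over the 57 was -0.07 (44 below 0) against -0.05 over all genes tested, and with median-of-ratios scaling the lower calls over all genes went from 3548 to 1449. The lower counts of this list and its groups are those under TPM scaling.

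Among the kinases and phosphatase partners, 8 of 11 were rhythmic under NRF (37.3% of all genes) and 5 under DRF (32.4%). Rcan1, a calcineurin regulator, had an amplitude of 0.65 on the log2 scale under NRF, peaking at 0.442 h (adjusted p = 3.15e-11), against 0.11 under DRF (adjusted p = 0.170), and its rhythms differed by clock time (adjusted p = 1.04e-11). Ppp1r3a, which targets protein phosphatase to glycogen and the reticulum, had amplitudes of 0.52 under NRF and 0.14 under DRF with peaks at 15.1 and 14.6 h, and its rhythms differed (adjusted p = 9.90e-05). Camk2d, the main cardiac isoform of calmodulin-dependent kinase, peaked at 3.24 h under NRF and 9.22 h under DRF, 5.98 h later (SE 1.15 h; adjusted p = 0.000127 for the difference). Camk2b (8.49 and 5.75 h, adjusted p = 0.0255) and Camk2g (5.63 and 7.49 h, adjusted p = 0.155) were rhythmic in both regimens.

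Among channel subunits and regulators, Rrad, an inhibitor of the L-type channel, had an amplitude of 0.61 with a peak at 1.59 h under NRF (adjusted p = 2.67e-06) and 0.14 under DRF (adjusted p = 0.530). Cacng6 peaked at 9.38 h under NRF and 3.51 h under DRF (a shift of -5.87 h, SE 1.10 h; adjusted p = 0.000331 for the difference), and the T-type channel gene Cacna1h was 1.17 times as high in mean level under DRF (adjusted p = 0.0174) and had amplitudes of 0.35 under DRF (adjusted p = 0.00146) and 0.28 under NRF (adjusted p = 0.107), without a difference by clock time that passed (adjusted p = 0.144).

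Of the 15 release channel partners, 8 were called lower over the DRF day, where 25.6% of all genes were. Among them were Fkbp1a (fold 0.894, adjusted p = 0.000198), which encodes a ryanodine receptor binding protein, Calm3 (fold 0.911, adjusted p = 0.000554), a calcium sensor gene, and Bin1 (fold 0.874, adjusted p = 0.000799) and Jph2 (fold 0.90, adjusted p = 0.000890), which shape the membranes of the dyad. Asph, whose locus also encodes junctin, had a rhythm under NRF (amplitude 0.21, adjusted p = 1.66e-06) and not under DRF (amplitude 0.02, adjusted p = 0.807), and its rhythms differed (adjusted p = 0.000751). Itpr3 was rhythmic in both regimens, with peaks at 10.9 and 7.86 h. The 4 genes of the lumen and counter-ion group were called lower under DRF (25.6% of all genes), among them Calr, the luminal chaperone calreticulin (fold 0.870, adjusted p = 0.00312), and Tmem38a, the counter-ion channel TRIC-A (fold 0.923, adjusted p = 0.0010). Calr peaked at 0.716 h under NRF and 8.60 h under DRF, 7.89 h later (SE 1.46 h; adjusted p = 0.000972 for the difference). Saraf, which restrains store-operated calcium entry, was rhythmic under DRF (amplitude 0.16, adjusted p = 5.70e-06) and not under NRF (adjusted p = 0.930), with a difference between regimens (adjusted p = 0.0127).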

How the data were processed

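PolyA RNA of 56 heart samples was sequenced, and groups were taken from the labels. The submitters' processing notes name HISAT2 2.0.5, featureCounts 1.5.0-p3 and mm10; annotation and use of strand are not given in the sources used here. The deposited values are named TPM by the authors, but each is a library constant times log2(1 + depth-scaled reads) divided by exon length, a unit of its own (other). The design had assumed linear TPM. A pair of constants per library was fitted to the steps of low values with GENCODE M21 exon lengths (GRCm38), and of 1.1924e+06 values below 30000 reads, 99.9989% lay within 0.1 of a whole number (lowest library 99.9952%). A length was searched for 832 of 22864 genes. The compression by the logarithm of the deposited values is thereby undone. Genes listed were above 0 in at least 20 libraries.

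TPM was recomputed from the reads, and 13869 genes averaging 1 TPM or more were tested on log2(TPM + 1), which understates changes of low genes, with limma 3.58.1 in R 4.3.3 (eBayes with a trend, Benjamini-Hochberg adjusted p under 0.05, adjusted over all genes). A 24-h harmonic per regimen stood in for the rhythm tool of the study. Rhythm differences were interaction F tests in 56 libraries, by clock time or with NRF shifted by 12 h. Mean level was tested with 1 mean per ZT and both interaction terms, and single contrasts in a model of 14 group means. Ratios were tested by permutation within ZT with numpy 2.4.6. Alternatives were a pseudocount of 0.1, no filter on low values, median-of-ratios scaling, the deposited values as they stand, limma voom, a replicate block, an atrial marker covariate, a threshold of 0.01, leaving out each ZT, replicate number or library, and, chosen after seeing the data, subtraction of each library's trend over exon length. Scripts were tested on simulated data.

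No batch is given in the labels, and 0 pairs of libraries were identical. Intervals were not computed from reads, which carry no molecular identifiers. Named genes were the 8 members, the 2 genes most like each, and up to 6 genes of lowest adjusted p in each of 4 tests of the other calcium genes. 1 gene that this rule names is not reported here. The members and lists were chosen with earlier results of these data known.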

Additional observations from a re-analysis of the deposited data

Results flagged for a closer look

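Within groups of 4 libraries, 112 combinations of member and group were examined for 1 library far from the rest, by its gap to the nearest library as a share of the group's range (Dixon's 95% limit), and 4 were found, where chance gives about 1 in 20. Atp2a2 in NRF ZT4 replicate 1 (3470 TPM, others 3906 to 3979) had a gap of 0.856 of the range, and in NRF ZT20 replicate 3 (3577 TPM, others 3703 to 3723) a gap of 0.863. Cacna1c in NRF ZT8 replicate 3 (26.8 TPM, others 24.3 to 24.6) had a gap of 0.871, and Hrc in DRF ZT4 replicate 2 (478 TPM, others 584 to 598) a gap of 0.889.

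The effect of clock time differed between DRF and NRF by the limma interaction test for Atp2a2 (adjusted p = 0.0317), Pln (adjusted p = 0.0126) and Casq2 (adjusted p = 0.00273), where 27.7% of all genes were called. With median-of-ratios scaling the calls of Atp2a2 (0.0767) and Pln (0.139) were lost. Atp2a2 had its lowest group mean at ZT12 under DRF (3227 TPM) and at ZT20 under NRF (3681 TPM). Pln was lowest at ZT16 under DRF (971 TPM) and at ZT24 under NRF (981 TPM), and Casq2 at ZT0 (562 TPM) and ZT12 (546 TPM).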

How the results depend on the processing

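The counts of called members are small and moved with most choices; the cause was not tested, except that a threshold of 0.01 and fewer libraries are stricter by construction. Rhythms under NRF (3 members) stayed at 2 to 4 in the settings other than leave-outs of libraries. Rhythms under DRF (2) became 0 at the 0.01 threshold, with no filter, with the deposited values and without ZT16, ZT20 or ZT24, and 1 with a pseudocount of 0.1, median-of-ratios scaling, the length trend removed, without ZT0 and without ZT8. The ZT effect under NRF (3) became 1 with the deposited values. The ZT effect under DRF (5) became 2 at 0.01 and without ZT24, and 3 with no filter and without ZT16. Rhythm differences by clock time (3) became 1 at 0.01, with median-of-ratios scaling, with the deposited values and without ZT24, and 5 without ZT8, and those by feeding time (3) became 1 without ZT16. Mean-level calls (2) became 0 with the deposited values and without ZT12, and 1 at 0.01, with no filter, median-of-ratios scaling, limma voom or the atrial covariate and without ZT0, ZT16 or ZT20. Their highest count in these settings was 3. Single-ZT contrasts (4) became 1 at 0.01, 2 with no filter and 7 with limma voom, which added Pln at ZT0, Slc8a1 at ZT8 and Casq2 at ZT24. Contrasts at matched feeding times (3) became 1 at 0.01 and without ZT8, and 5 with the length trend removed and without ZT4. Differences between ZT24 and ZT0 (0) became 1 with median-of-ratios scaling and 2 with the length trend removed. Ratio calls (3) became 1 at 0.01 and without ZT8. The share of all genes called under each setting is not set beside these counts, and it moved as well. With median-of-ratios scaling, mean-level calls over all genes went from 3918 to 2605.

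Leaving out 1 replicate number or 1 library gave 3 to 5 rhythms under NRF, 0 to 4 under DRF, 1 to 4 and 1 to 5 ZT effects under NRF and DRF, 1 to 4 rhythm differences by clock time and 1 to 4 by feeding time, 0 to 2 mean-level calls, 0 to 6 single-ZT contrasts, 1 to 6 at matched feeding times, 0 differences between ZT24 and ZT0, and 1 to 3 ratios.

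Deviations of same-numbered DRF and NRF libraries at the same ZT correlated at -0.18 to 0.12 (1 of 28 pairs over 0.1). These values show no pairing by number there but cannot exclude it, and links of a number across ZTs were not tested. With a replicate block the counts were 3 and 2 rhythms, 3 and 5 ZT effects, 3 and 3 rhythm differences, 2 mean-level calls, 5 single-ZT and 4 matched contrasts, 0 differences between ZT24 and ZT0 and 3 ratios, and the call lost among those reported was Ryr2 rhythm under DRF, adjusted p 0.0605.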
